A study of Mus musculus with 10 samples.

Results

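The subject here is a set of 10 cartilage matrix genes, Col2a1, Acan, Col9a1, Col9a2, Col9a3, Matn1, Matn3, Hapln1, Cnmd and Ucma, at the attachment of the supraspinatus tendon to the humerus (the enthesis) in mouse shoulders. Members were taken by symbol. All 10 were found among the 31053 genes of the droplet libraries and the 55453 genes of the plate libraries. The series has 10 libraries, each from pooled mice, with 1 library for each age in each assay. Wild-type C57BL/6 mice gave the droplet libraries, made from the whole enthesis on postnatal days 11, 18 and 56 (P11, P18 and P56). Their cells had been through red-cell lysis and a sort that removed cells stained by DAPI, which enters dead cells, or carrying the leukocyte antigen Cd45, before loading on 10x Genomics droplets. The plate libraries of 96 wells came from Gli1CreERT;Ai14 mice of 7 ages (P7, P11 and P14, then P18 and P21, then P28 and P42), which had all received tamoxifen at P5 and P7. In these mice Cre acts in cells that express Gli1 at the time of tamoxifen, and the Ai14 reporter then marks them and their descendants in red. The protocol's wording does not settle whether red cells were kept or removed, and its list of ages lacks P14. The libraries are called Gli1 plates, after their titles. Both assays read the 3′ ends of transcripts.

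Cartilage resists compression because a network of type II collagen fibrils holds aggrecan, a very large proteoglycan that draws in water. Type IX collagen, built from the chains of Col9a1, Col9a2 and Col9a3, decorates the fibrils. Link protein, encoded by Hapln1, fastens aggrecan to hyaluronan, and matrilins bridge fibrils and proteoglycans. The tendon enthesis carries a graded fibrocartilage between tendon and bone, part of which mineralises after birth.

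Levels in droplets are given as CPM, the UMIs (counted molecules) of the gene in each 1000000 UMIs summed over a set of cells. Connective-tissue cells were those in which 15 connective-tissue genes, none of them a member, made up at least 1% of UMIs and more than the immune, erythroid and endothelial genes together. There were 2296 such cells at P11, 1458 at P18 and 4105 at P56, with 34035963, 16079001 and 31353263 UMIs and medians of 14070, 10357 and 6240 UMIs per cell. A cell was called positive for Matn1, Msmp, Ibsp or Tnmd when it held at least 2 UMIs of that gene. Matn1 marks hyaline-type cartilage, Ibsp encodes bone sialoprotein of mineralising cells, and Tnmd encodes tenomodulin of tendon cells. Msmp encodes a small secreted protein first described in prostate. The tendon transcription factor Scx was at 328, 207 and 317 CPM in Tnmd-positive cells of P11, P18 and P56. A cell could be positive for more than 1 gene. Matn1-positive cells numbered 120 at P11, 158 at P18 and 0 at P56. Msmp-positive cells numbered 84, 183 and 0, Ibsp-positive cells 142, 617 and 34, and Tnmd-positive cells 1278, 478 and 1241. With 1 library per age no test between ages is possible in droplets, and all intervals there are 95% intervals of counting error alone. Cells passing the filters also differed in make-up, with immune cells at 71.5% in the P18 library against 17.1% at P11 and 0.102% at P56. The 19 immune marker genes, summed over connective-tissue cells, were at 32.3, 318 and 7.08 CPM at P11, P18 and P56, with 19, 19 and 14 of them detected, and the 4 mural markers at 152, 3.23 and 49.7 CPM. Xist stood at 753, 283 and 0.351 CPM in connective-tissue cells of P11, P18 and P56, and was found in 1780, 476 and 8 of these cells. With 1 library per age, these differences and age cannot be told apart, and their part in the results was not tested. Software version 3.1.0 wrote the P11 and P18 matrices and version 3.0.2 the P56 matrix, so version and the P56 age cannot be told apart. Between any pair of droplet libraries 4 to 9 barcodes were shared.

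Because all 10 genes were at low levels together at P56, the sequences at their starts are shown for Matn1 and Col9a1, with the largest differences from P18 to P56, for Acan, with the smallest, and for Col9a2, a type IX chain that differed less than its partner Col9a1. RefSeq (GRCm38.p6) gave 9 promoters, from 250 bases before to 50 after the start, for 8 of the 10 members. Capitals mark the GC box word GGGCGG on either strand. Coordinates are chr4:130944135-130944434 for Matn1, chr1:24177360-24177659 for the first Col9a1 promoter, chr4:121039316-121039615 for Col9a2 and chr7:79052976-79053275 for Acan, all on the plus strand.
Matn1: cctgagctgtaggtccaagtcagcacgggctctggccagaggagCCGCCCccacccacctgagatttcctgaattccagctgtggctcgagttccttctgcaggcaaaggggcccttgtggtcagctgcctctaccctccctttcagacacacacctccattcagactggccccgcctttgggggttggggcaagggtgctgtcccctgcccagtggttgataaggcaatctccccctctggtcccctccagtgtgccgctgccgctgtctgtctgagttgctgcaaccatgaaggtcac
Col9a1: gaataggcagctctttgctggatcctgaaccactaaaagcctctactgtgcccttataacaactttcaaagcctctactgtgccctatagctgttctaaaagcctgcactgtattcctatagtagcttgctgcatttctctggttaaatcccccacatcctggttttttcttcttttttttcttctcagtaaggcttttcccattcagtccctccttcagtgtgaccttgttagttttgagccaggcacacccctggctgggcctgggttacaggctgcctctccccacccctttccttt
Col9a2: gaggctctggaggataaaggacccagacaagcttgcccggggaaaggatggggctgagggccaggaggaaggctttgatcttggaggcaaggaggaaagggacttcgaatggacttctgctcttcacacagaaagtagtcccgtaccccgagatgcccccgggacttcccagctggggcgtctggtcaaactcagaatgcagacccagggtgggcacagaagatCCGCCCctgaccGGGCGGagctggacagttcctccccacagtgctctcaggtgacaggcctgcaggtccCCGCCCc
Acan: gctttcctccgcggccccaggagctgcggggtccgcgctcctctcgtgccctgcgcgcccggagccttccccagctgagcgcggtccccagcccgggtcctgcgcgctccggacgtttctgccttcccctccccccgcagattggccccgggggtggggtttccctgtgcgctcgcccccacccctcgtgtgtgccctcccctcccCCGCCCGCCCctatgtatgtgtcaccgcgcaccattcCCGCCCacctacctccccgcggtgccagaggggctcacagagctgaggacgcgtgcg
The GC box word was in 4 of the 9 member promoters (Acan, Col9a2, Matn1 and Matn3), against 35.7% of all 32851 promoters of this length. The core words bound by SOX factors, ACAAAG and ACAATG on either strand, were in 0 of 9, against 28.6% of all. The TATA word TATAAA was in 0 of 9, against 13.6%. GC content ran from 47.3% in the first Col9a1 promoter to 74% in Acan, with a median of 52.7% over all promoters. These are letter matches in a 300-base window and no more.

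The fibril-forming collagen Col2a1 (ENSMUSG00000022483; chromosome 15, 97975602 to 98004695, minus strand, GRCm38) encodes the chain of type II collagen. In connective-tissue cells its level was 11869, 30683 and 28.1 CPM in the P11, P18 and P56 libraries. The P18 library was highest, and the P56 level was 1092-fold lower than that of P18 (interval 1022 to 1168). A Col2a1 UMI was found in 66.2%, 75.4% and 2.85% of these cells. With every cell thinned to 2000 UMIs, the shares were 39.4%, 65.5% and 1.02%. Immune cells, which should lack the gene, showed a Col2a1 UMI in 35.6% of cells at P11 and 27.1% at P18 (7.81% and 9.18% after thinning), at medians of 10539.5 and 5468.5 UMIs per cell. At P56 endothelial cells served as this background, with a median of 4017 UMIs per cell and a Col2a1 UMI in 0.524%. The summed level of Col2a1 in immune cells was 57.4 CPM at P11 and 116 CPM at P18, below 1% of the level in connective-tissue cells. In endothelial cells of P56 it was 1.09 CPM (2 UMIs), 3.88% of the level in connective-tissue cells of that library.

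Type IX collagen has 3 chains with separate genes, and their levels separated with age. Col9a1 (ENSMUSG00000026147; chromosome 1, 24177610 to 24252684, plus strand) stood at 561 CPM, 1969 CPM and 0.223 CPM at P11, P18 and P56. Col9a2 (ENSMUSG00000028626; chromosome 4, 121039385 to 121055322, plus strand) stood at 439 CPM, 1857 CPM and 5.26 CPM. Col9a3 (ENSMUSG00000027570; chromosome 2, 180597790 to 180622189, plus strand) stood at 619 CPM, 2448 CPM and 0.447 CPM. Col9a3 ends over Tcfl5 on the other strand, and whether counting used the strand is not given in the sources used here. All 3 chains were highest at P18 and lowest at P56, when Col9a1 had 7 UMIs in 3 cells, Col9a3 14 UMIs in 12 cells and Col9a2 165 UMIs in 96 cells. Col9a1 had 1.28 UMIs per Col9a2 UMI at P11 and 1.06 at P18, against 0.042 at P56 (interval 0.0168 to 0.0894). Col9a3 had 1.41, 1.32 and 0.085 UMIs per Col9a2 UMI. The change in these ratios lay far outside counting error, and summed over connective-tissue cells the 3 chains were thus not lower by the same factor at P56. Their P56 UMIs lay in different cells. Tnmd-positive cells held 129 of the Col9a2 UMIs, 0 of Col9a1 and 1 of Col9a3. Ibsp-positive cells held 0 of Col9a2, 6 of Col9a1 and 4 of Col9a3. The part of cell make-up and of the cell filter in these ratios was not tested.

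Acan (ENSMUSG00000030607; chromosome 7, 79053483 to 79115099, plus strand), the aggrecan core protein, stood at 398 CPM, 1023 CPM and 20.7 CPM in connective-tissue cells of P11, P18 and P56. Hapln1 (ENSMUSG00000021613; chromosome 13, 89539796 to 89611652, plus strand), the link protein, stood at 265 CPM, 1198 CPM and 5.04 CPM. The annotated pseudogene Gm8546 lies inside Hapln1 on the other strand. Both genes were highest at P18, and Acan was the member with the smallest difference between P18 and P56, 49.3-fold (45.6 to 53.4). Acan had 0.0336 UMIs per Col2a1 UMI at P11 and 0.0333 at P18, and 0.738 at P56. Hapln1 had 0.664 UMIs per Acan UMI at P11, 1.17 at P18 and 0.243 at P56. Aggrecan message was thus lower at P56 by a smaller factor than type II collagen message, and link protein by a larger factor than aggrecan.

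Matrilins are multi-subunit adaptor proteins. Matn1 (ENSMUSG00000040533; chromosome 4, 130944385 to 130955475, plus strand) stood at 259 CPM, 413 CPM and 0.0319 CPM in connective-tissue cells. The P56 value was 1 UMI in 1 of 4105 cells. Matn3 (ENSMUSG00000020583; chromosome 12, 8947929 to 8972028, plus strand) stood at 183 CPM, 474 CPM and 2.14 CPM, with 67 UMIs in 47 cells at P56. Matn1 was carried by few cells even when it was high. At P18, 50% of its UMIs lay in 19 cells, whereas 50% of Col2a1 UMIs lay in 191 cells. At P11 these numbers were 20 and 88 cells. A Matn1 UMI was seen in 6.79% of connective-tissue cells at P11 and 13.1% at P18 (4.44% and 8.17% after thinning), the smallest shares of any member at those ages.

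Cnmd (ENSMUSG00000022025; chromosome 14, 79637690 to 79662170, minus strand) encodes chondromodulin, an inhibitor of vessel growth and a relative of tenomodulin. It stood at 195 CPM, 858 CPM and 1.21 CPM. Ucma (ENSMUSG00000026668; chromosome 2, 4976122 to 4985748, plus strand) encodes a secreted protein rich in gamma-carboxyglutamate that is made by chondrocytes. It stood at 248 CPM, 1134 CPM and 16.6 CPM. Ucma had the largest ratio of P18 to P11 of all members, 4.57-fold (4.45 to 4.69), and at P56 it was the member found in the most connective-tissue cells, 192 of 4105 (4.68%).

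**Figure D1:**
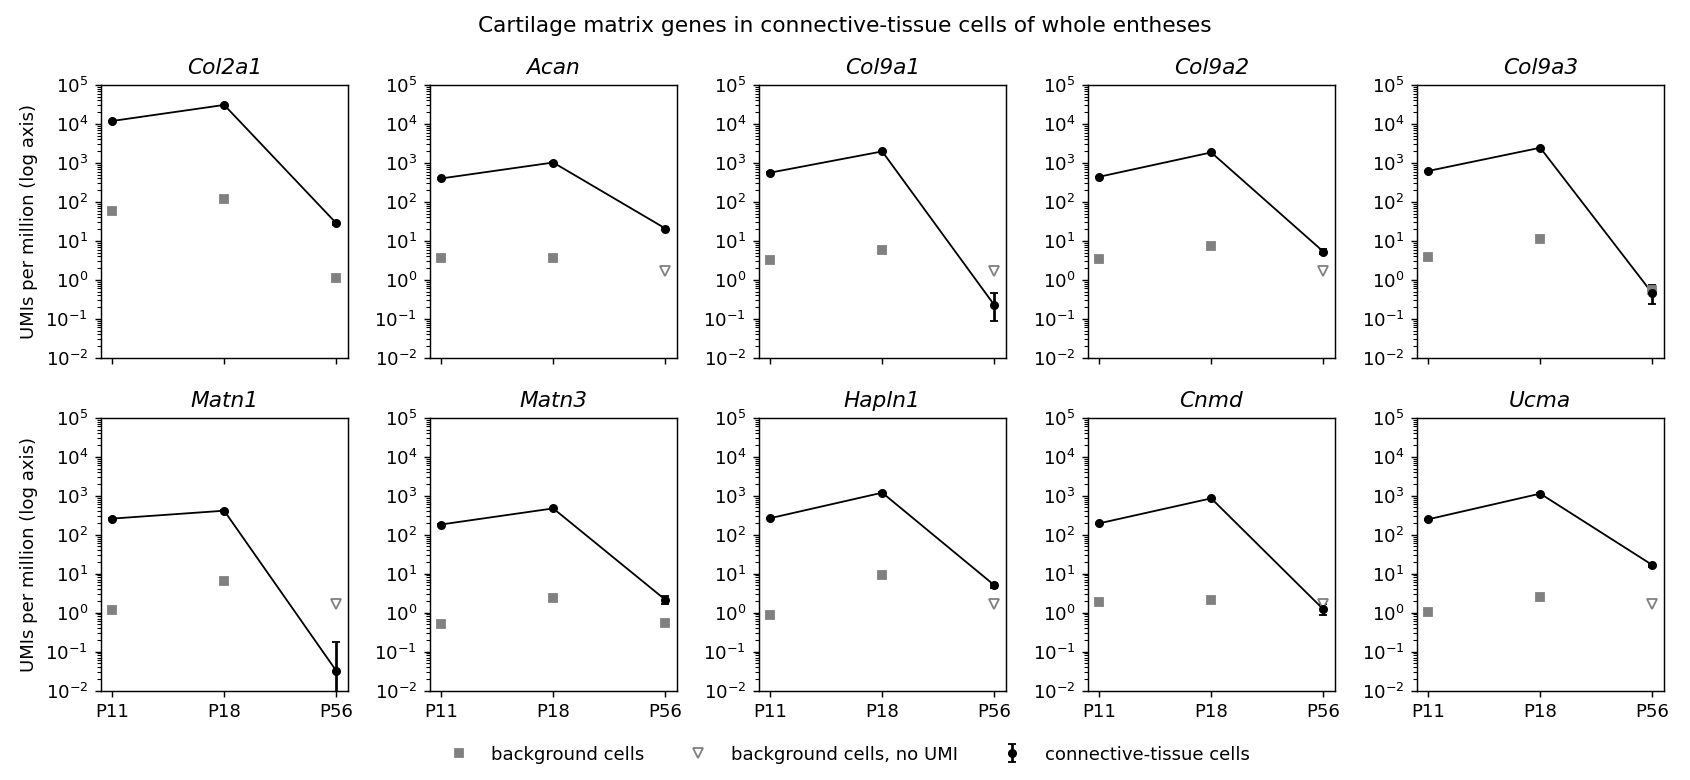
Level of each of the 10 cartilage matrix genes in connective-tissue cells of the 3 droplet libraries (black, CPM, log axis) at each age, with exact Poisson 95% intervals as bars and 1 library per age. Grey squares are immune cells at P11 and P18 and endothelial cells at P56, and open grey triangles stand at the 3-count floor where these had no UMI. Every member was highest at P18 and lowest at P56, and levels at P56 ran from Matn1 at 0.0319 CPM to Col2a1 at 28.1 CPM.

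All 10 members were lower at P56 than at P18 by 4-fold or more. Over all 12231 genes with at least 100 UMIs the share was 4.31%. From P11 to P56 the count was also 10 of 10, against 3.67% of genes. The median log2 ratio of the members was -8.95 from P18 to P56 and -6.86 from P11 to P56, where the medians of all genes were 0.23 and 0.00434. By size of the difference from P18 to P56, Matn1 came first with a log2 ratio of -13.66 (-18.96 to -11.18). It was followed by Col9a1 at -13.11 and Col9a3 at -12.42, then Col2a1 at -10.09, Cnmd at -9.47 and Col9a2 at -8.46. Hapln1 at -7.89, Matn3 at -7.79, Ucma at -6.09 and Acan at -5.62 (-5.74 to -5.51) had the smaller differences. The intervals of Matn1, Col9a1 and Col9a3 overlapped, as did those of Hapln1 and Matn3, so the order inside these 2 sets is not separated by counting error. The rest of the order was set against counting error in 1 library per age alone, and it changed with the cells taken. Over all cells that passed the filters, Col9a2 at -7.08 and Hapln1 at -6.52 came before Cnmd at -6.46. A stricter cell filter also moved Col9a2, as given in the closing section. Measured from P11, the same 4 members (Matn1, Col9a1, Col9a3 and Col2a1) had the largest differences, and Ucma at -3.90 and Acan at -4.26 the smallest. A single P56 cell held 624 of the 881 Col2a1 UMIs. Without it Col2a1 was at 8.20 CPM and its log2 ratio was -11.87, and it kept the fourth place. In endothelial cells, the P56 background, 3 UMIs make 1.64 CPM, above the P56 levels of Matn1, Col9a1, Col9a3 and Cnmd. The summed P56 levels of these members cannot be told from background with this set, which had 0 UMIs of Matn1, Col9a1 and Cnmd. Of the 38 Cnmd UMIs 25 lay in 10 cells, and 5 of the 7 Col9a1 UMIs lay in 1 cell. The 14 Col9a3 UMIs were spread over 12 cells. Col9a3 stood at 0.546 CPM (1 UMI) in endothelial cells against 0.447 CPM in connective-tissue cells.

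The ages between P11 and P18 differed the other way. All 10 members were higher at P18 in connective-tissue cells, from 1.59-fold for Matn1 to 4.57-fold for Ucma. For 4 of the 10 (Col9a2, Hapln1, Cnmd and Ucma) the difference was 4-fold or more, where 1.37% of genes were. The median log2 ratio was 1.90 for members and -0.22 for all genes. Median-of-ratios size factors differed from the totals by 0.07, -0.12 and 0.05 on the log2 scale at P11, P18 and P56, which makes the P18 levels higher still. Over all cells that passed the filters, of which 71.5% were immune at P18, Col2a1 was 1.04-fold and Acan 1.03-fold higher at P18 and Matn1 was 1.52-fold lower. The share of connective-tissue cells that held UMIs of 5 or more of the 9 members other than Matn1 was 14.7% at P11 and 55.6% at P18, each cell being thinned to 2000 UMIs. At P56 it was 0 of 4023 cells, which allows a share of up to 0.0746%. Without thinning, 3 of 4105 cells reached 5 members at P56. Within the positive sets the direction varied by set and gene. In Tnmd-positive cells 9 of 10 members were higher at P18, Col2a1 by 2.39-fold and Hapln1 by 3.85-fold, with Matn3 as the exception. Of the Tnmd-positive cells, 84 at P11 and 177 at P18 were also Ibsp-positive. In cells positive for Tnmd alone Col2a1 was lower at P18, at 340 CPM against 453 CPM, and Acan at 207 CPM against 260 CPM. Matn1, Matn3 and Cnmd were lower there as well, on 1, 7 and 14 UMIs at P18. Col9a1, Col9a2, Col9a3, Hapln1 and Ucma were higher in them. In Ibsp-positive cells 5 were higher (Col9a2, Col9a3, Hapln1, Cnmd and Ucma) and 5 lower. In Msmp-positive cells 4 were higher and in Matn1-positive cells 3, Hapln1 and Ucma among them in both. Col2a1 was lower at P18 in these 3 sets. In Matn1-positive cells Col2a1 was at 82977 CPM at P11 and 53800 CPM at P18, and in Ibsp-positive cells at 77683 CPM and 46769 CPM. Fewer cells of a type and less RNA per cell cannot be told apart in the summed levels.

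Among the positive sets, Matn1-positive cells carried the members most densely. At P18 all 9 other members were highest in them. Col9a3, for example, stood at 5740 CPM in Matn1-positive cells, 3372 CPM in Ibsp-positive, 2062 CPM in Msmp-positive and 614 CPM in Tnmd-positive cells. Counting only cells positive for a single gene, 8 of the 9 remained highest there. At 2000 UMIs a Matn1-positive cell held on average 8.51 of the 9 members at P11 and 8.42 at P18. Ibsp-positive cells held 6.54 and 6.31, Msmp-positive cells 6.94 and 6.96, and Tnmd-positive cells 1.25 and 2.21. Median depth also differed between the sets, at 15805.5 UMIs in Matn1-positive, 10837 in Ibsp-positive, 10105 in Tnmd-positive and 9796 in Msmp-positive cells of P18. The transcription factor Sox9, which drives most of these genes in chondrocytes, did not follow the same order. It stood at 1593 CPM in Msmp-positive cells of P18, 1170 CPM in Matn1-positive, 1037 CPM in Ibsp-positive and 354 CPM in Tnmd-positive cells.

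Msmp-positive cells shared most members with Matn1-positive cells but, outside the cells positive for both, had almost no Matn1 at P11 or P18. The Matn1 level of all Msmp-positive cells was 503 CPM at P11 and 4.13 CPM at P18. The 2 sets overlapped in 16 cells at P11 and 1 cell at P18. These 16 cells held 558 of the 561 Matn1 UMIs of Msmp-positive cells of P11. In the 68 Msmp-positive cells of P11 outside this overlap Matn1 was at 3.60 CPM, and in the 182 such cells of P18 at 2.09 CPM, near the 1.19 CPM and 6.61 CPM of immune cells. The other matrilin was present in the same cells, with Matn3 at 405 CPM and 647 CPM. Col2a1 stood there at 38243 CPM and 31663 CPM, Col9a1 at 2349 CPM and 2657 CPM, and Ucma at 774 CPM and 1381 CPM. Link protein and aggrecan were lower in Msmp-positive than in Matn1-positive cells of P18, Hapln1 at 771 CPM against 3146 CPM and Acan at 748 CPM against 1954 CPM. Matn1-positive cells and the cells outside the overlap are cut by a UMI threshold on Matn1 itself, so their Matn1 values describe the cut and support nothing.

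Ibsp-positive cells were the largest of the 3 cartilage-rich sets at P18. They held 67.6% of Col2a1 UMIs, 60.8% of Acan UMIs and 64.6% of Hapln1 UMIs of all connective-tissue cells of that library, in 617 of 1458 cells. At P11 their share of Col2a1 UMIs was 46.1%, and Matn1-positive cells held 47.3%. Many of these cells were positive for a second gene, 177 of the 617 for Tnmd and 86 for Matn1.

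**Figure D2:**
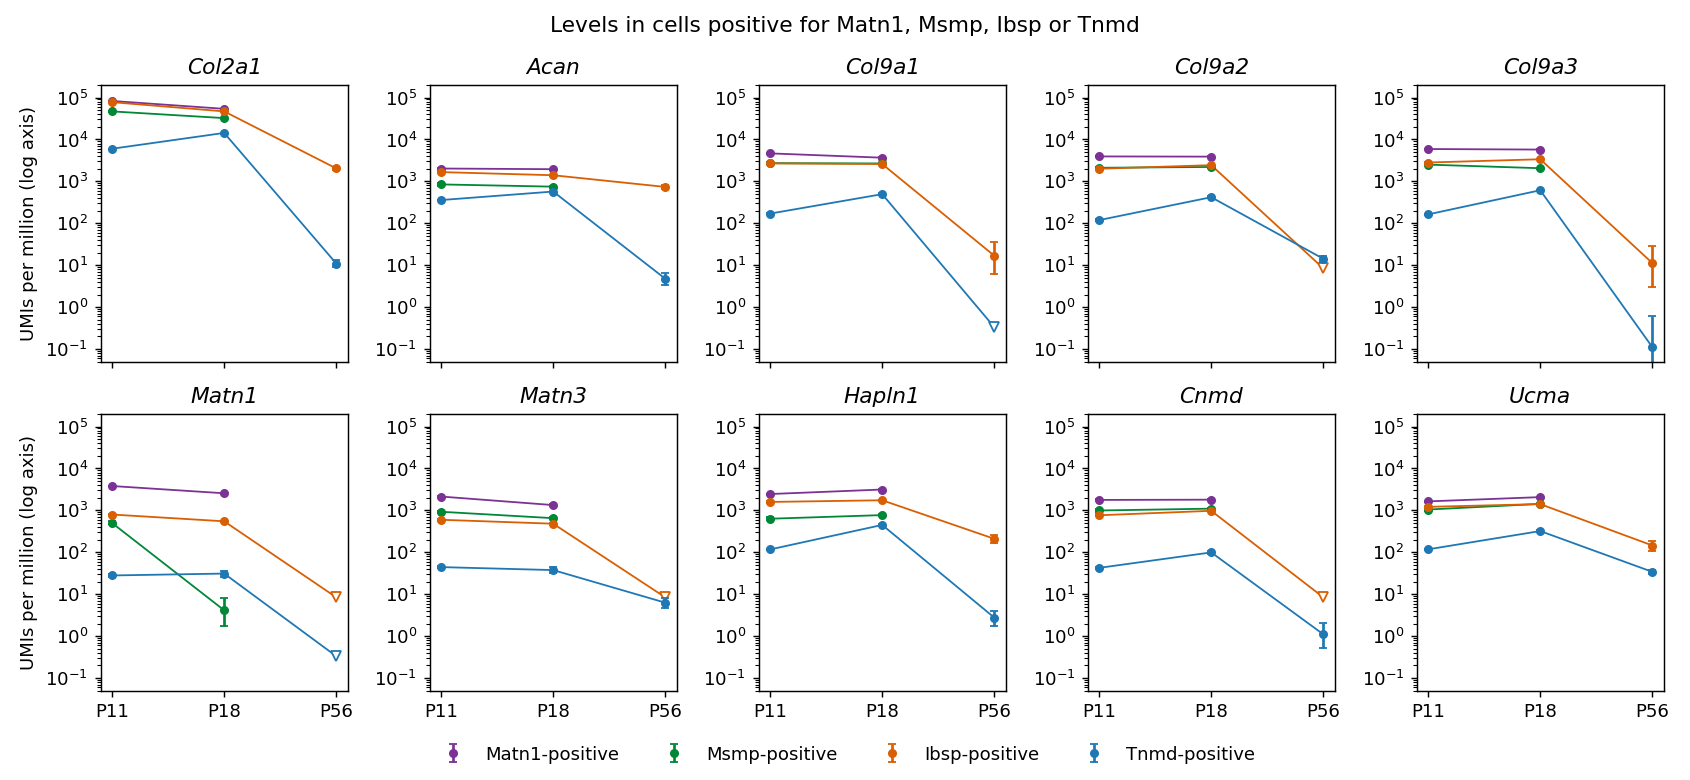
Level of the members (CPM, log axis) in cells positive for Matn1, Msmp, Ibsp or Tnmd in the P11, P18 and P56 droplet libraries, with exact Poisson 95% intervals as bars and open triangles at the 3-count floor where no UMI was found. At P18 the Matn1-positive cells are highest for all 9 members other than Matn1, and the Tnmd-positive cells lie lowest among the 4 sets for every member but Matn1.

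At P56 no connective-tissue cell was positive for Matn1 or Msmp, and the UMIs that remained were divided unequally between the positive sets. The 34 Ibsp-positive cells, 0.828% of connective-tissue cells, held 82.6% of the Col2a1 UMIs, 40.6% of the Acan UMIs and 47.5% of the Hapln1 UMIs. In these cells Acan stood at 737 CPM, against 1402 CPM in Ibsp-positive cells of P18, a log2 ratio of -0.93 (-1.11 to -0.75). Hapln1 stood at 209 CPM against 1743 CPM, a log2 ratio of -3.06. Col2a1 stood at 2031 CPM against 46769 CPM, a log2 ratio of -4.53, and 624 of its 728 UMIs came from the single cell named above. That cell had 19007 UMIs, with 190 of Ibsp, 284 of Spp1, 14 of Acan and 8 of Hapln1. Col9a2, Matn1, Matn3 and Cnmd had 0 UMIs in the 34 cells. Against the floor of 3 UMIs over the set, this puts Col9a2 at least 291-fold lower and Cnmd at least 117-fold lower than in Ibsp-positive cells of P18. An Acan UMI was in 25 of the 34 cells and a Hapln1 UMI in 20, and all 20 held both. Of the 5 mineralising genes followed, Spp1 (osteopontin) stood at 25086 CPM in these cells against 6272 CPM at P18 and Bglap (osteocalcin) at 3803 CPM against 222 CPM. The other 3 were lower, Ibsp itself at 3167 CPM against 6810 CPM, the phosphatase Alpl at 413 CPM against 476 CPM and Dmp1 at 44.6 CPM against 47.8 CPM.

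The Tnmd-positive cells of P56, 30.2% of connective-tissue cells, held most UMIs of Col9a2 and Matn3, which had none in Ibsp-positive cells, and of Ucma. They carried 78.2% of Col9a2 UMIs, 85.1% of Matn3 UMIs and 59.5% of Ucma UMIs. The level of Ucma was still higher in the 34 Ibsp-positive cells, at 145 CPM against 34.0 CPM. Tnmd-positive cells carried 6.62% of Acan UMIs and 11.2% of Col2a1 UMIs. Without the single cell with 624 Col2a1 UMIs, Ibsp-positive cells held 40.5% of the 257 Col2a1 UMIs left and Tnmd-positive cells 38.5%. Cells positive for none of the 4 genes, 69.0% of the total, carried 53.7% of Acan UMIs and 73.7% of the 38 Cnmd UMIs. Each of the 3 genes was detected in few of the Tnmd-positive cells. Col9a2 was found in 76 cells, Ucma in 121 and Matn3 in 39, with 8 cells holding Col9a2 and Ucma, 6 Col9a2 and Matn3, and 8 Ucma and Matn3. Col9a2 was detected in 6.61% of the cells with Ucma and in 6.12% of all Tnmd-positive cells. Matn3 was detected in 7.89% of the cells with Col9a2 and 6.61% of those with Ucma, against 3.14% of all.

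**Figure D3:**
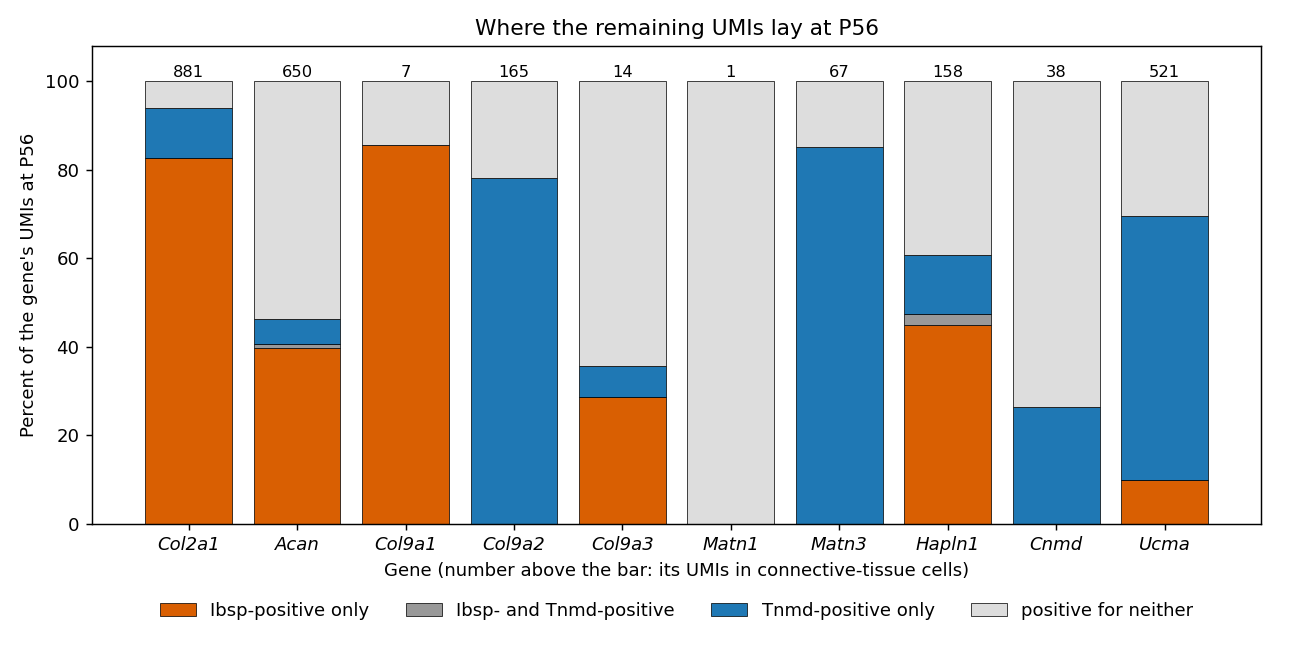
Share of each member's UMIs at P56 (percent of the UMIs in connective-tissue cells) that lay in cells positive for Ibsp only, for Tnmd only, for both or for neither, with the number of UMIs above each bar. Col2a1 lies mainly in Ibsp-positive cells (82.6%, or 40.5% without the 1 cell that holds 624 of its 881 UMIs), Matn3 and Col9a2 mainly in Tnmd-positive cells (85.1% and 78.2%).

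Inside Tnmd-positive cells the count of members lower by 4-fold or more from P11 to P56 was 9 of 10, against 2.37% of 10379 genes, with Ucma as the exception at 117 CPM and 34.0 CPM (3.45-fold, 3.06 to 3.90). The median log2 ratio of members was -5.81 and that of all genes 0.08. From P18 to P56 it was 10 of 10, against 2.32% of genes. Part of the Tnmd-positive cells were also positive for Ibsp, 84 at P11, 177 at P18 and 3 at P56. With cells positive for Tnmd alone (1193, 300 and 1238 cells) the count from P11 to P56 was 6 of the 9 members with at least 100 UMIs (Acan, Cnmd, Col2a1, Col9a1, Col9a3 and Hapln1), against 1.99% of 10097 genes. Matn1 had too few UMIs there, 12 at P11 and 0 at P56. Cnmd, at a log2 ratio of -2.27, went to -1.23 under a stricter cell filter and then fell short of 4-fold. At P56 it had 10 UMIs in the 1238 cells, but 29 UMIs in the 703 cells of the stricter run. Doublets were scored anew in that run, which thus holds cells that the main run had removed as doublets. The parts of the filter and of the doublet removal in this shift were not separated.

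In these Tnmd-only cells the level of Col2a1 was 453, 340 and 10.9 CPM in the P11, P18 and P56 libraries. Acan stood at 260 CPM, 207 CPM and 4.07 CPM, a log2 ratio from P11 to P56 of -5.99 (-6.50 to -5.53). This was the largest difference among members with more than 3 UMIs left. Its interval overlapped that of Col2a1, -5.38 (-5.68 to -5.09), and under the stricter filter Col2a1 was at -6.13 and Acan at -5.92. The order was thus unlike that of all connective-tissue cells, where Acan and Ucma had the smallest differences. Col9a1 stood at 14.3 CPM, 24.3 CPM and 0 UMIs, at least 43.4-fold lower than at P11. Col9a3 stood at 10.7 CPM, 37.9 CPM and 0.110 CPM, the last being 1 UMI. Hapln1 stood at 20.2 CPM, 57.5 CPM and 2.31 CPM, and Cnmd at 5.33 CPM, 4.42 CPM and 1.10 CPM. For Col2a1, Acan, Col9a1, Col9a3, Hapln1 and Cnmd in that order, immune cells of P11 had 57.4, 3.73, 3.23, 3.90, 0.849 and 1.87 CPM. Immune cells of P18 had 116, 3.61, 5.84, 11.4, 9.14 and 2.10 CPM of them. Endothelial cells of P56 had 2, 0, 0, 1, 0 and 0 UMIs of them. The part of such background in the Tnmd-only levels was not tested.

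Col9a2, Matn3 and Ucma did not share that course in Tnmd-only cells. Col9a2 stood at 12.2 CPM, 30.0 CPM and 14.2 CPM, a log2 ratio from P11 to P56 of 0.22 (-0.11 to 0.54). Ucma stood at 29.7 CPM, 44.8 CPM and 34.1 CPM, a log2 ratio of 0.20 (-0.01 to 0.41). Matn3 stood at 6.18 CPM, 2.21 CPM and 6.28 CPM, a log2 ratio of 0.02 (-0.47 to 0.50), and its P18 level was at that of immune cells, 2.38 CPM. The 3 intervals span or touch 0, and they cover counting error alone. Immune cells of P11 had 3.40 CPM of Col9a2, 1.02 CPM of Ucma and 0.509 CPM of Matn3, and endothelial cells of P56 had 0, 0 and 1 UMI of them. These values depended on the cell filter, and doublets were scored anew under each filter. With cells held to 1000 genes or more and no more than 5% mitochondrial UMIs, the log2 ratio from P11 to P56 was -1.89 (-2.55 to -1.27) for Col9a2, -0.74 (-1.63 to 0.12) for Matn3 and 0.51 (0.13 to 0.91) for Ucma. Hapln1 went from -3.13 to -4.31 and Col2a1 from -5.38 to -6.13 under that filter, and Acan from -5.99 to -5.92.

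**Figure D4:**
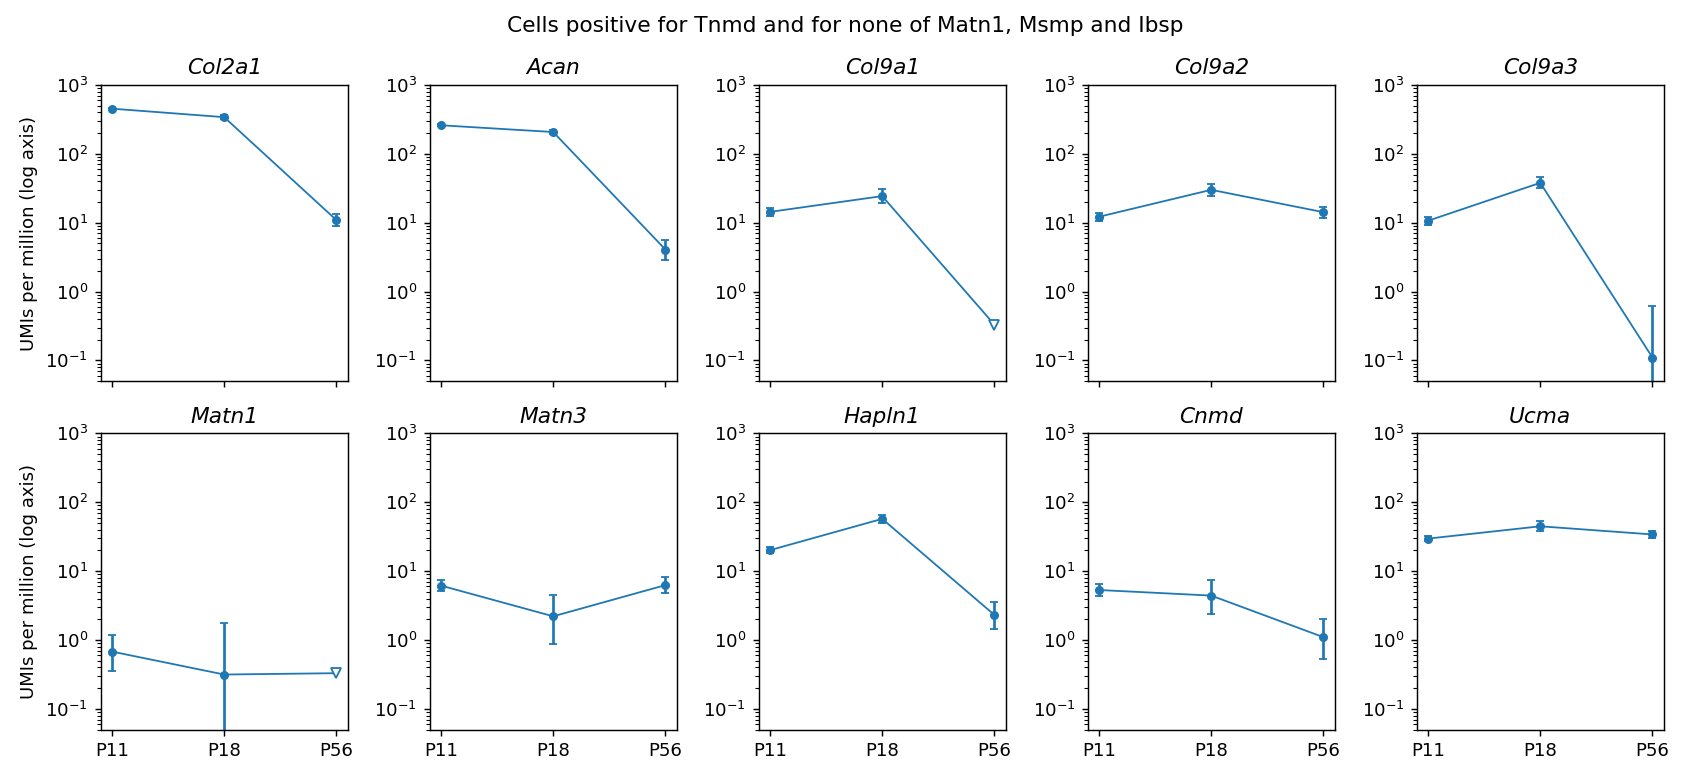
Level of the members (CPM, log axis) at P11, P18 and P56 in cells positive for Tnmd and for none of Matn1, Msmp and Ibsp, with exact Poisson 95% intervals as bars and open triangles at the 3-count floor where no UMI was found. Col9a2, Matn3 and Ucma end near their P11 level (14.2, 6.28 and 34.1 CPM at P56), and the other members end below it.

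The genes that accompanied these 3 at P56 overlapped in part, a description made after the values were seen. Among Tnmd-positive cells of P56, the genes furthest above the remaining cells in those with a Col9a2 UMI included Col22a1, a collagen of the muscle-tendon junction, at 1499 CPM against 171 CPM. Among Tnmd-only cells a Col22a1 UMI was found in 93.4% of the 76 cells with Col9a2 and in 21.1% of the 1162 without. At P11 these shares were 4.86% of 144 and 3.81% of 1049 cells, so this pairing of Col9a2 with Col22a1 was not seen at P11. Cells with Col9a2 at P56 had a median of 6.06% mitochondrial UMIs against 4.75% in those without, and a median of 6769 UMIs against 6123. The part of this in the result was not tested. Angptl7 led in cells with Ucma, at 9506 CPM against 2687 CPM. In Tnmd-only cells it was also higher with Matn3, at 6893 CPM against 3214 CPM, and lower with Col9a2, at 323 CPM against 3532 CPM. Mfap4, a microfibril-associated protein, led in cells with Matn3, at 2783 CPM against 360 CPM. It was also higher in Tnmd-only cells with Ucma, at 952 CPM against 373 CPM, and with Col9a2, at 1009 CPM against 384 CPM. At P11 Tnmd-only cells with Ucma had more Angptl7 (274 CPM against 110 CPM) and Mfap4 (2670 CPM against 1575 CPM) than those without. Those with Matn3 did as well, at 384 CPM against 127 CPM and 3554 CPM against 1674 CPM. With Col9a2 the P11 values were 166 CPM against 141 CPM and 2072 CPM against 1761 CPM. The Angptl7 pairings did not hold at P18, at 502 CPM against 538 CPM with Ucma and 161 CPM against 541 CPM with Matn3. With Col9a2 Angptl7 was then higher, at 849 CPM against 500 CPM. Mfap4 at P18 was lower with Ucma (249 CPM against 260 CPM) and with Col9a2 (154 CPM against 269 CPM). It was higher with Matn3, at 601 CPM against 250 CPM, but only 7 of these cells held Matn3. Col22a1 reached 2 UMIs in only 2 Tnmd-only cells of P18, too few to judge its pairing. Reg3g was among the 8 leading genes of both the Col9a2 and the Matn3 cells. The sister gene Matn4 was at 363 CPM against 55.1 CPM in cells with Matn3.

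Other genes of cartilage were followed as a list of 40, with 38 above 100 UMIs. From P18 to P56, 19 of these were lower by 4-fold or more and 2 higher in connective-tissue cells, against 4.31% and 4.27% of all genes, with a median log2 ratio of -1.87. Among regulators 2 of 4 were lower by that much. Sox9 stood at 200 CPM, 837 CPM and 64.1 CPM, a log2 ratio of -3.71 from P18 to P56, smaller than that of any of the 10 matrix genes. Its partners Sox5, at 32.6, 58.0 and 18.2 CPM, and Sox6, at 13.4, 28.8 and 8.52 CPM, had ratios of -1.67 and -1.76. Foxa3, a forkhead factor of hypertrophic cartilage, had the largest difference of the regulators, -8.42.

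The remaining classes of that list were mixed. Among collagens 4 of 6 were lower by 4-fold or more, from Col27a1 at -4.81 to Col6a1, a widespread microfibrillar collagen, at -0.07. Among other matrix and secreted proteins 10 of 18 were lower and 1 was higher. Msmp had 1932 CPM at P18 and 0 UMIs at P56, at least 20194-fold lower against a floor of 3 UMIs over the cells. Cilp, a protein of the intermediate layer of cartilage, was higher at P56 by 4.22 on the log2 scale, at 1082 CPM against 58.0 CPM. Of the 7 enzymes, 1 was lower and 1 higher, with Chst11, a chondroitin sulfotransferase, at -3.41 and the aggrecan-cleaving protease Adamts4 at 4.46. Of the signalling genes 2 of 3 were lower, Fgfr3 by a log2 ratio of -5.41 and Trps1 by -1.18 at the other end.

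The genes most like the members were ranked by Pearson correlation of log2(CPM + 1) with the mean profile of the 9 members other than Matn1. The ranking used 10 groups of positive cells and ages with at least 20 cells, over 11248 genes. Mia, a secreted protein of chondrocytes also called cartilage-derived retinoic acid-sensitive protein, came first at r = 0.992. Pantr1, Foxa3, Smarca1, Col27a1, Ldlrad3, Slc7a2, Peg3, Chadl and Furin followed, down to r = 0.977. The 10 groups share 3 libraries and some cells, so these values only describe the pattern.

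On the Gli1 plates 8 of the 10 members stayed at 50.7 CPM or more to the last age, and Matn1 and Matn3 had 0 counts on the P42 plate. Levels there are CPM of the counts summed over the wells kept, 86 to 96 per plate. Col2a1 stood at 9451, 5034, 16457, 11550, 7635, 7861 and 6105 CPM on the 7 plates in order of age, from P7 to P42. The P14 plate was highest and the P11 plate lowest, with no ordering by age. At least 1 Col2a1 count was found in 87.6% to 97.9% of wells, and the share of RNA carried between wells was not tested. Droplet levels at P56 and plate levels at P42 cannot be set against each other, since assay, mice, sort and age all differ.

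Type IX collagen chains on the plates were lowest at different ages. Col9a1 stood at 982, 388, 1180, 771, 549, 1022 and 304 CPM, and Col9a3 at 451, 148, 511, 297, 265, 747 and 171 CPM. Col9a2 stood at 218, 120, 251, 153, 96.8, 853 and 203 CPM. The P28 plate was thus the highest for Col9a2 and Col9a3, and Col9a1 was highest at P14. Acan ranged from 143 CPM at P11 to 556 CPM at P14 and Hapln1 from 85.5 CPM at P11 to 327 CPM at P28. Cnmd ranged from 228 CPM at P42 to 1182 CPM at P14, and Ucma from 50.7 CPM at P42 to 562 CPM at P7.

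The matrilins differed from the other members on the plates. Matn1 had 107 counts at P7 and 141 at P14, 1 at P21, and 0 at P11, P18, P28 and P42. Of these, 86.0% of the P7 counts and 93.6% of the P14 counts lay in 5 wells each. Matn3 had 73, 10, 68, 6, 4, 1 and 0 counts from P7 to P42. Both genes were high on the same 2 plates, which share with P18 a file layout of whole numbers written without decimals. Msmp followed another course, with 771 counts at P42, found in 75 of 86 wells.

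A slope on log2 age over the 7 plates was fitted to all genes with edgeR's quasi-likelihood test. After Benjamini-Hochberg adjustment at 0.05 it called 0 of 4390 genes (0%) and 0 of the 8 members tested. At an unadjusted p under 0.05 there were 427 genes (9.73%) and 0 of these members. DESeq2 called 109 genes (2.48%) and 0 members. Ucma had the most negative member slope, -0.78 on the log2 scale for each doubling in age (SE 0.38, adjusted p = 0.545 by edgeR), and Col9a2 the most positive, 0.42 (SE 0.39, adjusted p = 0.790). Col2a1 had a slope of -0.31 (SE 0.32, adjusted p = 0.817). The other 5 slopes lay between -0.42 for Col9a1 and 0.16 for Hapln1. The median slope of the 8 members was -0.23 and that of all genes 0.0014. Matn1 and Matn3 reached 10 counts in 2 and 3 plates and were left out by the filter on low counts. Without that filter 307 of 22452 genes (1.37%) were called, among them Matn1 with a slope of -3.16 (adjusted p = 2.66e-13) and Matn3 with -2.51 (adjusted p = 2.97e-09). Matn1 then rests on 2 plates, and Matn3 mostly on the same 2 (P7 and P14), whose files write no decimals. The file layout was not fitted as a term without the filter, so age and layout were not separated for these 2 genes. With the filter and the file layout as a term, 0 genes were called and 5 of the 8 member slopes changed sign. Age and layout are thus not well separated on these plates. With 1 plate per age, p-values measure the spread of single libraries about a line.

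**Figure D5:**
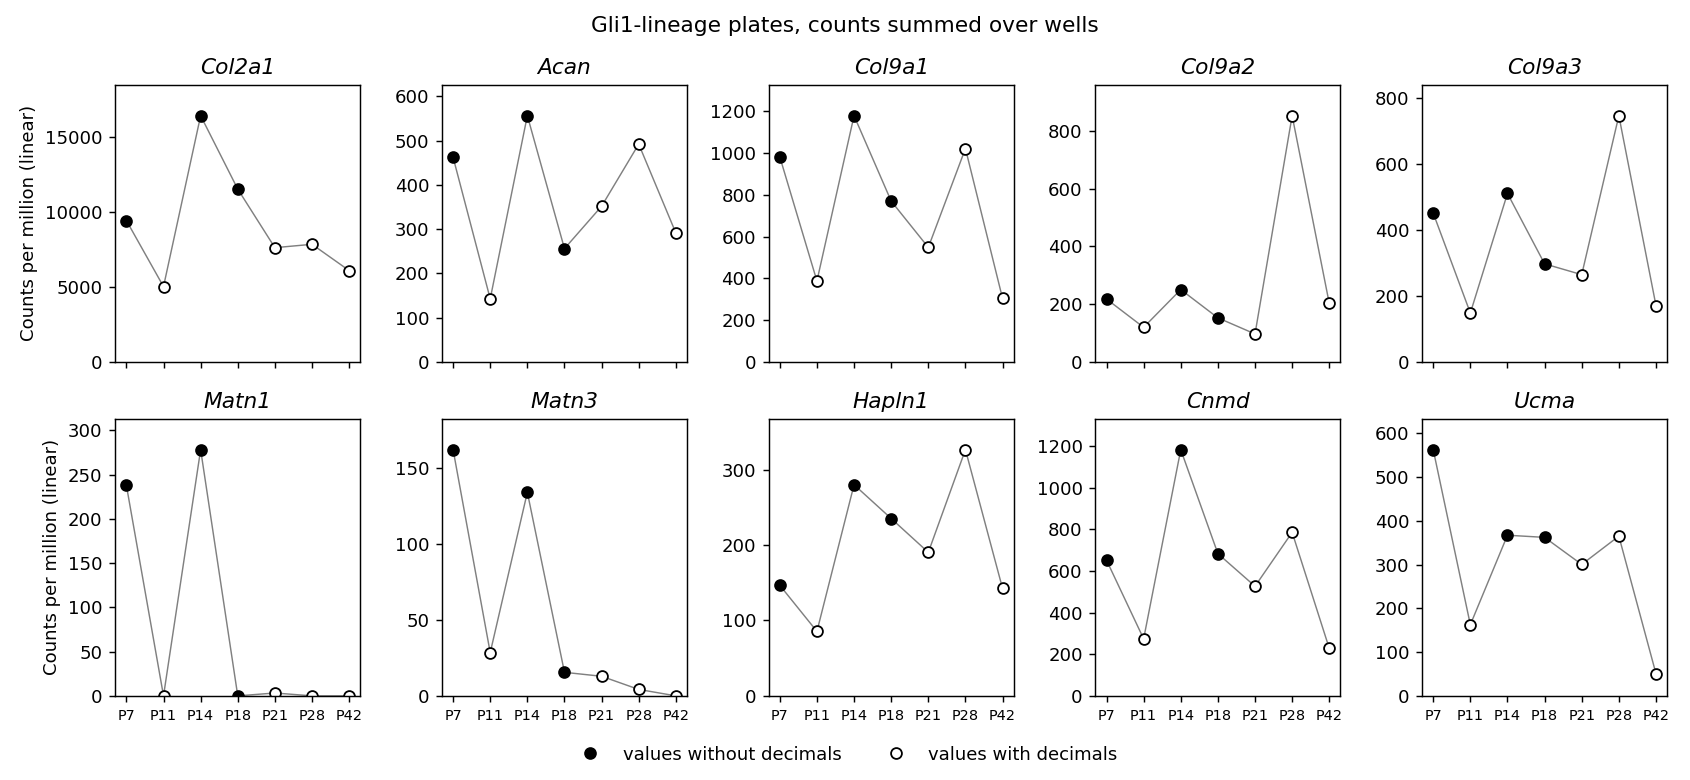
Level of the members on the 7 Gli1 plates (CPM summed over wells, linear axis with its own scale for each gene) by age, 1 plate per age and no error bars. Open circles are plates whose files write values with decimals. Matn1 and Matn3 are high at P7 and P14 only, and the other 8 members remain at 50.7 CPM or more on every plate.

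Matn1-positive wells, where present, led for most members. Of the 9 other members, 9 at P7 and 8 at P14 were highest in them among sets of at least 3 wells, and Ucma at P14 was higher in Ibsp-positive wells, at 1085 CPM against 929 CPM. Matn1-positive wells occurred at P7 (7 wells) and P14 (6 wells), with Col2a1 at 40440 CPM and 62429 CPM. Ibsp-positive wells ran from 6 at P7 to 43 at P42, with Col2a1 between 9544 CPM and 41581 CPM. Tnmd-positive wells ran from 22 at P21 to 70 at P7, with Col2a1 between 2036 CPM at P42 and 10783 CPM at P14. In each of the 7 plates Col2a1 was higher in Ibsp-positive than in Tnmd-positive wells.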

How the data were processed

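Whole-number counts were deposited, per the file headers and values: UMIs per gene and cell barcode in the droplet matrices, and counts per gene and well on the plates. Whether the plate counts were collapsed by molecular identifier, and the aligner and annotation, are not given in the sources used here. The build is mm10, per the submitters' processing notes. The 3 droplet libraries held 44104990, 53725468 and 40082499 counts in 3263, 5588 and 5520 barcodes, and the 7 plates 240498 to 507431 counts.

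Cells and wells were kept if 500 or more genes were detected and mitochondrial counts did not exceed 10%, leaving 2952, 5396 and 5131 cells at P11, P18 and P56. Doublets were scored with scrublet in scanpy 1.11.5. Its own threshold marked 0.0339%, 1.0% and 0.078% of cells, so the highest scores were removed up to 0.8% per 1000 cells (70, 233 and 211 cells). Plate wells were not scored for doublets. A class cut from a summed score is a range and not a type: 109, 11 and 527 cells lay between 0.5% and 2% of the 15-gene connective-tissue sum.

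Droplet counts were summed and given as CPM with exact Poisson 95% intervals, shares with Clopper-Pearson intervals, and ratios with exact conditional intervals. A count of 0 was set against 3 counts over the set of cells. Over all genes, 0.5 UMIs were added before ratios. Plate counts were summed per plate and tested with edgeR 4.0.16 (R 4.3.3), with TMM scaling, a filter that kept genes reaching 10 counts on 4 or more plates, and Benjamini-Hochberg adjustment at 0.05. DESeq2 1.42.0 was the alternative tool. On simulated counts for the 4390 genes of the plate comparison, 200 genes had a slope of 1.5 in either direction. Of these, 179 (89.5%) were recovered, with 4 false calls among 183. Among members kept by that filter, the slope largest in size was that of Ucma at -0.78, smaller than the simulated slope. Recovery at slopes of the members' size was not tested. All 10 members are named. From the 40 other cartilage genes, the Sox trio and the ends of each class by P18 to P56 ratio are named, and the 10 genes most like the members by correlation. The members, lists and tests were chosen with earlier results of these data known. Whether separate mice, litters or runs lie behind the libraries is not stated beyond the pooling.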

Additional observations from a re-analysis of the deposited data

Results flagged for a closer look

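At P56, 79 Cnmd UMIs were found in cells that passed the filters but fell outside the connective-tissue class and outside the immune, erythroid and endothelial sets, more than the 38 UMIs inside the class. Of these, 77 lay in 12 of the 428 other cells, at 521 CPM. Edn2, Lhx9 and Vwa1 were the genes furthest above the remaining other cells in these 12. The comparisons of the report do not use these cells. Over all cells that passed the filters the log2 ratio of Cnmd from P18 to P56 was -6.46, against -9.47 in connective-tissue cells.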

How the results depend on the processing

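The 4 droplet counts stayed within 1.5 times their value in every alternative run, and all 169 alternative log2 ratios of members in connective-tissue cells were lower at P56 and past 4-fold, 45 of them outside the counting interval. In Tnmd-positive cells the count of 9 ranged from 6 (at least 5 UMIs, or Tnmd alone) to 10. With cells held to 1000 genes or more and no more than 5% mitochondrial UMIs, a setting chosen for Tnmd-only cells after seeing the data, Col9a2 and Matn3 there went to -1.89 and -0.74, and Cnmd to -1.23. In connective-tissue cells Col9a2 went to -10.13. Doublets were scored anew under each cell filter, with 98 cells removed at P56 in that setting against 211 in the main one. Leaving out each member's highest P56 cell was also chosen after seeing the data. Median-of-ratios scaling was not run for the order of sets at P18, where a library's scale cannot change it.

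On the plates DESeq2 called 109 genes and the fit without a filter 307, and no genes were called in the other alternatives. With file layout as a term the slopes of Acan, Cnmd, Col2a1, Col9a1 and Col9a3 were 0.23, 0.20, 0.22, 0.024 and 0.22. In wells with 1000 genes or more Col9a3 was 0.072. The cause was not tested. Leaving out 1 plate at a time gave Acan -0.33 to 0.082, Cnmd -0.63 to 0.051, Col2a1 -0.49 to -0.13, Col9a1 -0.65 to -0.10, Col9a2 -0.14 to 0.84, Col9a3 -0.53 to 0.19, Hapln1 -0.025 to 0.50 and Ucma -1.08 to -0.32, with 0 genes called in each. Without P7 the Acan and Col9a3 slopes were 0.082 and 0.089, without P11 Hapln1 -0.025, without P28 Col9a2 -0.14, and without P42 Cnmd 0.051 and Col9a3 0.19. Depth limits Matn1 at P56, where 1 UMI was counted. No paired analysis was possible because no age has a second library of the same kind.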
